A study of Mus musculus with 6 samples.

Results

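The Bcl2 family genes examined here are 10 genes that were picked by name from the 55809 genes in the deposited counts: the anti-apoptotic genes Bcl2, Bcl2l1 and Mcl1, the BH3-only genes Bcl2l11, Bmf, Bbc3, Pmaip1 and Bid, and the effectors Bax and Bak1. They were measured in HC11 cells, a line of mouse mammary epithelial cells that the study uses as a luminal line. The cells were stimulated in medium with BMP7 protein (BMP7, 3 libraries) or kept without it (Ctrl, 3 libraries). For growth factor stimulation, the methods describe HC11 cells as starved first, in a medium listed without serum, EGF or insulin. BMP7 is a secreted ligand of the bone morphogenetic protein family, and no genetic change was named for either group. Poly(A) RNA was sequenced in bulk, and all libraries came from 1 cell line, with no statement that they were separate cultures, so p-values measure the spread between these libraries, which may be technical. The methods give more than 1 duration of BMP7 stimulation for HC11 cells and do not name the one used for these libraries. Libraries are named by the number in their column of the counts, which is 1, 2 and 3 for Ctrl and 1, 3 and 4 for BMP7.

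The proteins of this family decide whether the outer membrane of the mitochondrion is opened, the step that commits a cell to intrinsic apoptosis. Anti-apoptotic members hold the effectors and the BH3-only proteins in check, BH3-only proteins carry stress signals by binding anti-apoptotic members or by activating effectors, and the effectors form the pore through which cytochrome c leaves. In the mammary gland this balance is known from involution, when the milk-secreting epithelium is cleared by cell death. Many of these proteins are controlled by phosphorylation, cleavage or degradation, which RNA counts do not show.

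BMP7 libraries held more RNA of Bcl2l1, which encodes the survival protein Bcl-xL, and less of Bcl2, the survival gene the family is named for, and of Bid, which links death receptors to mitochondria. Bcl2l1 rose 1.56-fold, Bcl2 fell to a level 1.74-fold lower than in Ctrl, and Bid to one 1.53-fold lower. The other 7 genes, among them the abundant Mcl1 and Bak1, did not pass the test. All 10 genes passed the filter on low counts, and a gene was called when its p from edgeR's quasi-likelihood test, adjusted by the Benjamini-Hochberg method over all 15733 genes tested, was under 0.05 and its fold change above 1.2. By that rule 1 of the 10 genes was higher and 2 were lower, where 5.99% of all genes tested were called higher, 5.38% lower and 11.4% in either direction. With the adjusted p alone the same 3 genes passed, beside 13.7% of all genes tested. The count rests on 3 genes, was not tested as a set, and does not set the family apart from other genes. The median log2 fold change was -0.07 over the 10 genes and -0.01 over all genes tested.

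The sequences around the transcription start of the 3 called genes are shown first, because these are the genes whose RNA moved, and because BMP receptors act through Smad proteins that bind short DNA elements. Each is a RefSeq window of 250 bases before and 50 bases from a start of the gene, in GRCm38.p6 coordinates, 5′ to 3′ on the gene's strand, which is the minus strand for all 3. Capitals mark the GC-rich Smad element GGCGCC, whose reverse complement is the same letters, and the Smad box GTCTG or CAGAC, which was searched on both strands. No motif overlapped another in the windows shown.
Bcl2, chr1:106714241-106714540: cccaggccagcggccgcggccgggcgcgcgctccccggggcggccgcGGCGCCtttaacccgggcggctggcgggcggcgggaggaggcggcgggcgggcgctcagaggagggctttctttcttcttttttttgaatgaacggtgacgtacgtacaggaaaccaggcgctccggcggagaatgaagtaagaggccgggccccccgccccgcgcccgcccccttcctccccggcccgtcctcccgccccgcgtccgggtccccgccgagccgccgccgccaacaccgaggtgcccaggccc
Bcl2l1, chr2:152828440-152828739: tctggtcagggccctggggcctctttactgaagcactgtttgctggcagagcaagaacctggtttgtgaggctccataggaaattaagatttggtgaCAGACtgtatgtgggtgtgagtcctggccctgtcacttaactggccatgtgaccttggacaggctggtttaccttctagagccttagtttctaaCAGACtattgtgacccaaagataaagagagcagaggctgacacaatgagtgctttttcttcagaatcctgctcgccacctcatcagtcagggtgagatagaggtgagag
Bid, chr6:120916775-120917074: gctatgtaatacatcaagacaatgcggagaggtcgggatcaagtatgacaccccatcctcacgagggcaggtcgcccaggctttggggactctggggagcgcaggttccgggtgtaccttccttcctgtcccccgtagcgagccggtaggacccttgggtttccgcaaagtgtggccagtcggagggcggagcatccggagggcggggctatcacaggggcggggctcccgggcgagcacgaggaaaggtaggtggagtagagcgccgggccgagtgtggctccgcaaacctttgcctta
The Bcl2 window held 1 GGCGCC, the Bcl2l1 window held 2 Smad boxes, written CAGAC, and the Bid window held neither. RefSeq lists 3 starts for Bcl2l1, and the windows at the other starts held neither motif, so the one shown is the one with matches. GGCGCC was present in 11.9% of the 32851 RefSeq windows of this length and the Smad box in 49.6%, so a match is common, and it describes letters and not a site in use. RefSeq windows matched 9 of the 10 genes, all but Pmaip1. Matches were not confined to called genes. A Bcl2l11 window held 2 GGCGCC and 1 Smad box, and a Bbc3 window 1 GGCGCC and 2 Smad boxes. A Bmf window held 3 Smad boxes and the Bak1 window 1, while the Bax and Mcl1 windows held neither motif.

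Library totals ran from 14607938 to 23748970 counts, and Id1, a direct target of BMP signaling, separated the groups as labelled, with 7.90 ± 0.301 CPM in Ctrl and 154 ± 10.7 CPM in BMP7 (SD, n = 3 each), where CPM are counts divided by the TMM-scaled size of their library. Of the epithelial markers, the study uses Krt5 and Krt14 for basal cells and Krt8 and Krt18 for luminal cells. Krt5 (2600 to 2685 CPM in Ctrl, 2423 to 2818 CPM in BMP7) and Krt14 (3394 to 3631 and 4284 to 5258 CPM) were highest. Krt8 was at 57.9 to 66.2 CPM in Ctrl and 64.4 to 68.9 CPM in BMP7, and Krt19 stayed under 0.4 CPM. Krt14 was higher in every BMP7 library. Krt18 (48.5 to 51.1 and 27.1 to 35.7 CPM), Epcam (631 to 647 and 460 to 499 CPM) and Cdh1 (970 to 992 and 787 to 839 CPM) were lower. BMP7 replicates 3 and 4 stood apart from BMP7 replicate 1 in genes of other cell types. The summed level of 10 adipocyte markers was 14.4 to 23.4 CPM in Ctrl, 26.3 CPM in BMP7 replicate 1 and 88.3 and 78.1 CPM in BMP7 replicates 3 and 4. That of 10 macrophage markers was 43.1 to 46.5 CPM in Ctrl, 45.0 CPM in BMP7 replicate 1 and 24.2 and 22.5 CPM in BMP7 replicates 3 and 4. None of the adipocyte or macrophage markers was at 0 in every library, and the defining Adipoq and Adgre1 stayed at or under 4.62 and 1.64 CPM. Lyz2 made up most of that difference (25.5 to 26.6 CPM in Ctrl, 22.5, 6.76 and 6.94 CPM in BMP7 replicates 1, 3 and 4), while Cd68 was higher in the BMP7 libraries (12.4 to 15.6 CPM against 10.9 to 11.6 CPM). The summed lymphocyte markers split the same way, at 3.88 to 4.33 CPM in Ctrl, 3.69 CPM in BMP7 replicate 1 and 1.64 and 1.32 CPM in BMP7 replicates 3 and 4. The fibroblast sum was 115 to 126 CPM in Ctrl and 102 to 120 CPM in BMP7, and its genes differed. Dcn was at 0.737 to 1.74 CPM in Ctrl and BMP7 replicate 1 and at 4.44 and 4.90 CPM in BMP7 replicates 3 and 4. Col3a1, Pdgfrb, Lum and Thy1 were also highest in BMP7 replicates 3 and 4. Col1a1 went the other way, at 65.1 to 78.8 CPM in Ctrl and 48.9 to 58.1 CPM in BMP7. Pdgfra overlapped between groups, and Col1a2 was already raised in BMP7 replicate 1 (3.76 CPM, against 1.06 to 1.62 CPM in Ctrl). Whether the RNA of these marker genes came from other cells or from HC11 cells was not tested, nor was its part in the results below. In bulk RNA fewer cells of a type cannot be told apart from less RNA per cell. BMP7 replicate 1, which did not share the shift, was therefore also set alone against Ctrl, with the spread taken from the Ctrl libraries.

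**Figure D1:**
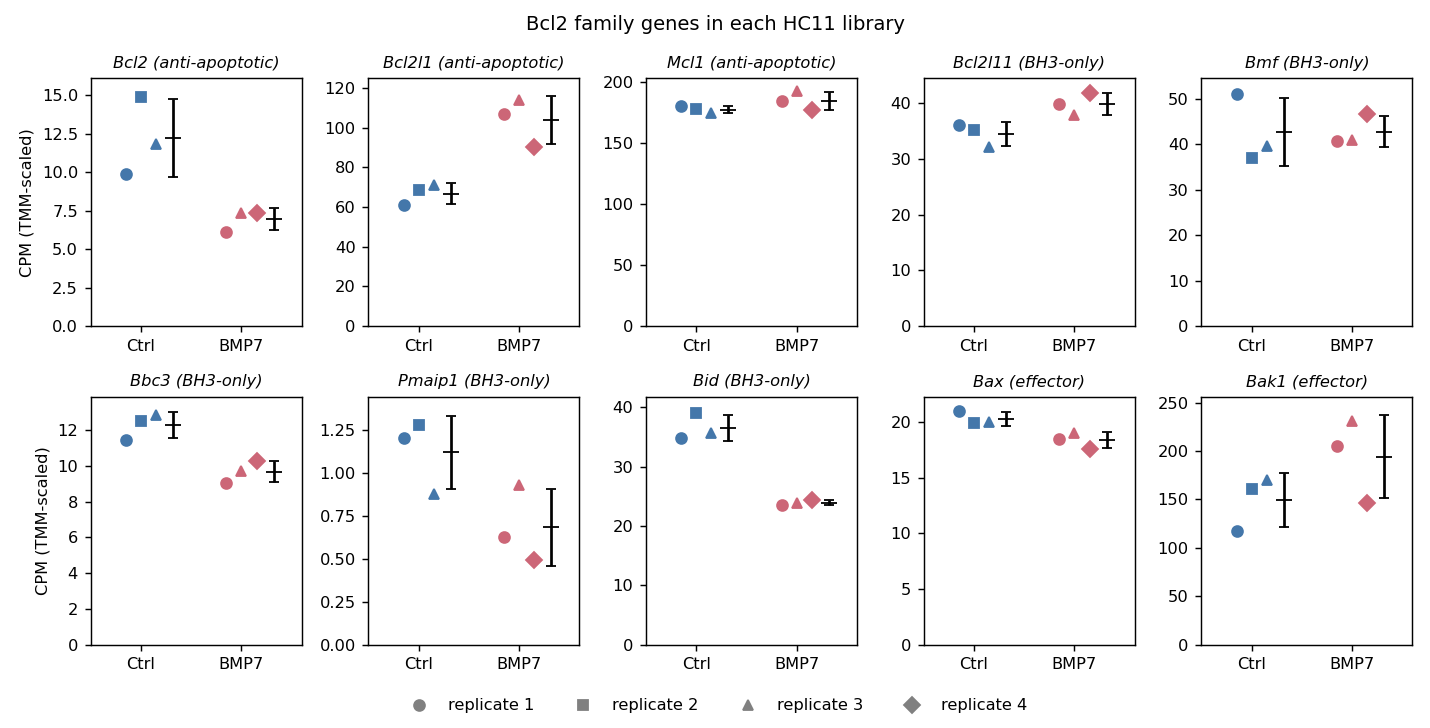
CPM after TMM scaling (vertical axes, each from 0) of the 10 Bcl2 family genes in the 3 Ctrl (blue) and 3 BMP7 (red) libraries. Marker shapes give the replicate number, and black bars the mean and SD of 3 libraries. Bcl2l1 is above all Ctrl libraries in every BMP7 library, Bcl2 and Bid are below, and Bak1 spreads widely in both groups.

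The anti-apoptotic genes moved in different directions. Bcl2l1 is on chromosome 2 (152622588 to 152673648, minus strand, in the mm39 annotation that the counts use). It measured 60.8, 68.3 and 71.1 CPM in Ctrl replicates 1, 2 and 3, and 107, 114 and 90.3 CPM in BMP7 replicates 1, 3 and 4. The lowest BMP7 library lay above the highest Ctrl library. This gave a log2 fold change of 0.64 (SE 0.08, 95% interval 0.46 to 0.82) with an adjusted p of 5.4e-05 in edgeR. BMP7 replicate 1 alone gave 0.68 with an adjusted p of 0.000276 in edgeR.

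Bcl2 (chromosome 1, 106465908 to 106642004, minus strand) was far scarcer, with 205, 303 and 242 counts in the Ctrl libraries and 88, 166 and 133 in BMP7 replicates 1, 3 and 4. Scaled to library size these were 9.87, 14.9 and 11.8 CPM in Ctrl and 6.13, 7.38 and 7.33 CPM in BMP7. All BMP7 libraries were lower than all Ctrl libraries, and the Ctrl libraries spread more among themselves. The log2 fold change was -0.80 (SE 0.15, 95% interval -1.13 to -0.48), with an adjusted p of 0.00178 in edgeR. It was -0.99 for BMP7 replicate 1 alone (adjusted p = 0.0207 in edgeR). Of the exon bases of Bcl2, 6.09% overlap D630008O14Rik, and since strand was not used, reads there cannot be given to either gene.

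Mcl1, a short-lived survival protein, was the most abundant anti-apoptotic gene. It is on chromosome 3 (95566099 to 95570487). Ctrl libraries held 180, 178 and 174 CPM and BMP7 libraries 184, 192 and 177 CPM, and the groups overlapped. Its log2 fold change of 0.06 had a 95% interval of -0.07 to 0.18, and its adjusted p in edgeR was 0.591.

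Among the BH3-only genes, Bid alone was called. Bid (chromosome 6, 120868891 to 120893814, minus strand) encodes a protein that caspase-8 cuts to an active form. It measured 34.9, 39.0 and 35.7 CPM in Ctrl replicates 1, 2 and 3 and 23.5, 23.8 and 24.4 CPM in BMP7 replicates 1, 3 and 4. The BMP7 libraries lay within 1 CPM of each other, and the groups were far apart. The log2 fold change was -0.61 (SE 0.08, 95% interval -0.78 to -0.44, adjusted p = 4.1e-05 in edgeR), and with BMP7 replicate 1 alone it was -0.64 (adjusted p = 0.00297 in edgeR). Bid shares 17.7% of its exon bases with its neighbour Bcl2l13, another family member, whose own log2 fold change was 0.04 (adjusted p = 0.804 in edgeR).

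Bcl2l11 encodes Bim, which binds all the anti-apoptotic proteins (chromosome 2, 127967958 to 128004467). It was at 36.1, 35.2 and 32.1 CPM in Ctrl and at 39.9, 38.0 and 41.9 CPM in BMP7, so that every BMP7 library was above every Ctrl library. BMP7 differed from Ctrl by a log2 fold change of 0.21 (95% interval 0.05 to 0.37), and the adjusted p of 0.0803 in edgeR missed the threshold.

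Bbc3 encodes Puma, a p53-induced killer (chromosome 7, 16042318 to 16052130). Its values were 11.5, 12.5 and 12.9 CPM in Ctrl and 9.06, 9.69 and 10.2 CPM in BMP7, again without overlap but in the other direction. The log2 fold change of -0.34 (95% interval -0.58 to -0.10) had an adjusted p of 0.0593 in edgeR. With upper-quartile scaling, which sets libraries by an upper quantile of their counts, the adjusted p in edgeR was 0.0463. That was the only 1 of 13 alternatives in which Bbc3 was called. The adjusted p was 0.113 in DESeq2 and 0.180 in edgeR without Ctrl replicate 3.

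Bmf, a BH3-only protein tied to the cytoskeleton and to loss of attachment (chromosome 2, 118359238 to 118380168), had nearly the same mean in both groups. Ctrl libraries were at 51.1, 37.1 and 39.8 CPM and BMP7 libraries at 40.8, 41.0 and 46.8 CPM. BMP7 differed from Ctrl by a log2 fold change of only 0.01 (95% interval -0.21 to 0.22, adjusted p = 0.983 in edgeR), and its sign changed when single libraries were left out.

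Pmaip1 encodes Noxa, which mainly binds Mcl1. It was at the edge of detection, with 25, 26 and 18 counts in Ctrl and 9, 21 and 9 counts in BMP7. That is 0.880 to 1.28 CPM against 0.627, 0.933 and 0.496 CPM, and BMP7 replicate 3 overlapped the Ctrl range. A log2 fold change of -0.67 had a wide interval, from -1.46 to 0.11, and an adjusted p of 0.272 in edgeR, so a difference was not detectable at this depth.

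Neither effector was called. Bax (chromosome 7, 45111121 to 45116322), which moves from the cytosol to mitochondria, measured 21.0, 19.9 and 20.0 CPM in Ctrl and 18.5, 19.1 and 17.6 CPM in BMP7. The BMP7 libraries were all below the Ctrl libraries by a small margin. Its log2 fold change was -0.14 (95% interval -0.33 to 0.05, adjusted p = 0.337 in edgeR), and 12.2% of Bax exon bases overlap Gm45808.

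Bak1 (chromosome 17, 27238784 to 27247983), which sits in the mitochondrial membrane, spread widely between libraries of a group. It was at 117, 161 and 170 CPM in Ctrl replicates 1, 2 and 3 and at 205, 231 and 147 CPM in BMP7 replicates 1, 3 and 4. BMP7 replicate 4 lay inside the Ctrl range, and Ctrl replicate 1 was the lowest of all. The log2 fold change of 0.38 (95% interval 0.09 to 0.67) had an adjusted p of 0.0840 in edgeR. Bak1 passed the threshold without BMP7 replicate 4 (log2 fold change 0.55, adjusted p = 0.00550 in edgeR) and without Ctrl replicate 3 (0.48, adjusted p = 0.0488), and did not with any other single library left out. Over all 13 alternatives its adjusted p ran from 9.3e-07, with no filter on low counts, to 0.366 in DESeq2. Of its exon bases, 25.5% overlap Ggnbp1 or Gm50253.

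**Figure D2:**
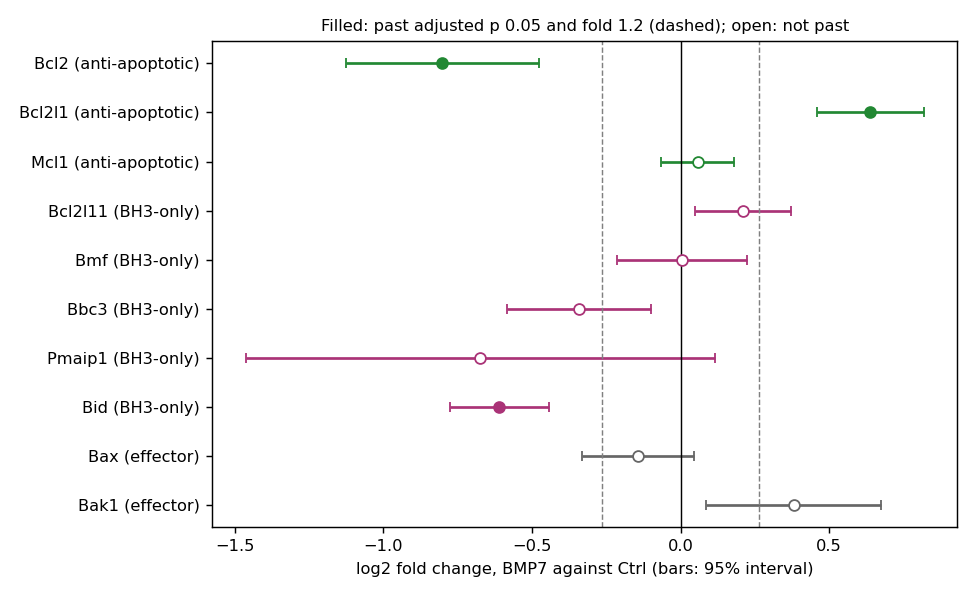
Log2 fold change of BMP7 against Ctrl for each gene (points, horizontal axis) with 95% intervals from edgeR, coloured by class. Filled points are the called genes, past a fold change of 1.2 (dashed lines) with an adjusted p under 0.05: Bcl2l1 at 0.64, Bid at -0.61 and Bcl2 at -0.80.

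The CPM values of the groups did not overlap for 6 of the 10 genes, with Bcl2l1 and Bcl2l11 higher in BMP7 and Bcl2, Bbc3, Bid and Bax lower. Over all genes tested, 14.8% had every BMP7 library above every Ctrl library, 15.1% had the reverse, and 29.8% had either. An exact permutation test of 3 libraries against 3 gave each of the 6 genes a two-sided p of 0.1, the smallest that this design allows.

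Levels were compared between genes per length, in TPM, a level per exon length that sums to the same total in every library. TPM used full exon lengths, although fragments falling in several genes were left out. Bases shared with other genes were 25.5% of the exon bases of Bak1, 17.7% of Bid, 12.2% of Bax and 6.09% of Bcl2. They were 0% for Bmf and Bcl2l1. The TPM of genes with shared bases may thus be too low. Whether the order of Bax and Bcl2l1, or of Bid and Bmf, depends on this was not tested. In Ctrl libraries Bak1 (169 ± 26.6 TPM) and Mcl1 (142 ± 7.77 TPM) were the most abundant, and their ranges overlapped. Bcl2l1 (39.7 ± 1.78 TPM) and Bax (35.3 ± 2.36 TPM) followed, also with overlapping ranges, then Bid (28.1 ± 1.81 TPM) and Bmf (22.3 ± 4.64 TPM), whose ranges overlapped too. Below these, Bbc3 (15.8 ± 0.399 TPM), Bcl2l11 (11.7 ± 1.15 TPM), Bcl2 (3.63 ± 0.724 TPM) and Pmaip1 (1.13 ± 0.242 TPM) were each separate from the next (SD, n = 3).

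In BMP7 libraries the order was the same down to Bax, with Bak1 at 202 ± 35.8 TPM, Mcl1 at 136 ± 1.65 TPM, Bcl2l1 at 57.0 ± 3.92 TPM and Bax at 29.4 ± 0.364 TPM (SD, n = 3). No ranges overlapped among these. Bmf (20.7 ± 2.69 TPM) then stood above Bid (17.0 ± 1.15 TPM), and Bcl2l11 (12.6 ± 1.27 TPM) overlapped Bbc3 (11.5 ± 1.17 TPM). Bcl2 was at 1.92 ± 0.226 TPM and Pmaip1 at 0.627 ± 0.174 TPM. A TPM depends on the rest of the library, and over all genes tested the median log2 difference of BMP7 from Ctrl in TPM was -0.12, so changes between groups are better read from CPM.

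**Figure D3:**
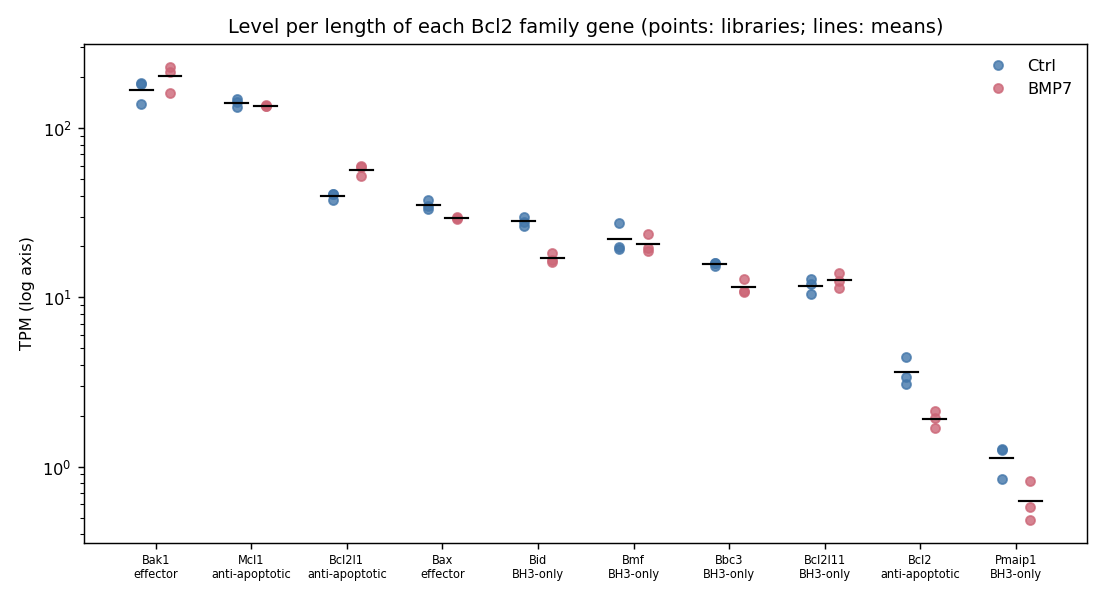
TPM (vertical axis, log scale) of each gene in the Ctrl (blue) and BMP7 (red) libraries, ordered by the Ctrl mean, with lines at group means. Bak1 and Mcl1 lie highest in both groups and Bcl2 and Pmaip1 lowest. Bid and Bmf change places, as do Bbc3 and Bcl2l11. The ranges of Bid and Bmf overlap in Ctrl, and those of Bcl2l11 and Bbc3 in BMP7. The levels are not corrected for exon bases shared with other genes.

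By class, the anti-apoptotic genes summed to 190, 187 and 178 TPM in Ctrl and 195, 197 and 193 TPM in BMP7. The 3 BMP7 sums were the higher ones, by a log2 ratio of 0.08 in TPM and 0.19 in CPM per kilobase after TMM scaling, which does not carry the shift in TPM. The 5 BH3-only genes summed to 84.8, 78.7 and 73.5 TPM in Ctrl and 59.9, 58.1 and 69.3 TPM in BMP7. Per length these sums were lower in all BMP7 libraries, by a log2 ratio of -0.34 in TPM and -0.23 in CPM per kilobase. In CPM, without the lengths, the log2 ratio of the sums was -0.12. Bid, the only gene of this class called, had the largest difference in mean TPM, 28.1 in Ctrl and 17.0 in BMP7. Bbc3 was at 15.8 and 11.5 TPM, Bmf at 22.3 and 20.7 TPM and Pmaip1 at 1.13 and 0.627 TPM. Bcl2l11 went the other way, at 11.7 and 12.6 TPM. The effectors summed to 176, 218 and 219 TPM in Ctrl and 243, 260 and 192 TPM in BMP7, and overlapped. Bak1 made up 82.5% ± 3.45 (SD, n = 3) of that sum in Ctrl and 87.1% ± 2.29 in BMP7, so the effector sum followed Bak1. Class sums are given as a description, without a test.

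Within the anti-apoptotic class Bcl2l1 took a larger share in BMP7, and as shares add up to the whole, those of other genes can be lower without a lower level, as for Mcl1. Bcl2l1 held 19.8%, 21.7% and 22.9% of the class sum in Ctrl and 30.0%, 30.4% and 27.3% in BMP7 replicates 1, 3 and 4. Mcl1 held 76.6% ± 1.78 in Ctrl and a mean of 69.8% in BMP7, and Bcl2 held 1.96% ± 0.384 and 0.984% ± 0.123 (SD, n = 3). The shares of all 3 genes were apart in the 2 groups. Within the BH3-only class, Bid held 35.6% ± 2.66 in Ctrl and 27.3% ± 0.767 in BMP7, and Bcl2l11 held 14.9% ± 0.511 and 20.2% ± 0.645.

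Ratios between genes, taken inside each library, do not depend on how libraries are scaled. The ratio of Bcl2l1 to Bcl2 in TPM was 9.16 to 12.3 in Ctrl and 34.9, 30.9 and 24.6 in BMP7 replicates 1, 3 and 4. It was higher in every BMP7 library, as both genes behind it were called, in opposite directions. Bid per Bcl2l1 was 0.741, 0.737 and 0.649 in Ctrl and 0.283, 0.270 and 0.349 in BMP7. Bax per Bcl2l1, a pair often quoted as a balance of death and survival genes, was 0.891 ± 0.101 in Ctrl and 0.519 ± 0.0432 in BMP7, whereas Bax per Bcl2 went from 9.99 ± 2.31 to 15.5 ± 1.81 (SD, n = 3). Bax, itself not called, thus stood lower against a survival gene called higher and higher against one called lower. Bak1 per Bcl2l1 (4.24 ± 0.492 in Ctrl, 3.53 ± 0.398 in BMP7) and Bcl2l11 per Bcl2l1 (0.297 ± 0.0407 and 0.223 ± 0.0382) overlapped between groups.

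Of 84 further genes of the pathway, grouped by role, 74 could be tested, and 7 were called higher and 6 lower, which is 17.6% beside 11.4% of all genes tested. These counts by list are a description and were not tested as sets. Of 15 other Bcl2 family genes, 7 were tested. Bnip3, which marks mitochondria for removal, was called at a log2 fold change of 0.60 (15.4 ± 1.18 CPM in Ctrl, 23.4 ± 1.53 CPM in BMP7, SD, n = 3, adjusted p = 0.000386 in edgeR). A stretch of 530 bases, 73.7% of a Bnip3 transcript, is 98.7% identical to a copy elsewhere, and 5 other genes hold such matches. Of its exon bases, 22.3% overlap Gm45507. Reads in these parts may have been left out. The other tested members were the survival gene Bcl2l2, the BH3-only gene Bad and Bok, Bcl2l12, Bcl2l13 and Bnip3l, with log2 fold changes of -0.09 to 0.33, none called. Bcl2l10 and Hrk had no count in any library, and Bcl2a1a, Bcl2a1b, Bcl2a1d, Bik, Bcl2l14 and Bcl2l15 had at most 11 counts.

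Downstream of the mitochondrion, 21 genes of the caspases, the apoptosome and their inhibitors were tested, and 2 were called, both lower, a share (9.52%) no higher than the 11.4% of all genes tested. Casp9, the caspase that the apoptosome activates, fell by 0.42 on the log2 scale, from 35.5 ± 0.259 CPM to 26.5 ± 0.576 CPM (SD, n = 3, adjusted p = 0.000772 in edgeR). Apaf1, the scaffold that binds cytochrome c and Casp9, fell by 0.35, from 21.6 ± 2.14 CPM to 17.0 ± 1.45 CPM (adjusted p = 0.0311 in edgeR). Casp9 stayed called when any 1 library was left out, while Apaf1 was called in 2 of those 6 fits (log2 fold changes of -0.41 to -0.27), those without Ctrl replicate 2 and without BMP7 replicate 4, and not with BMP7 replicate 1 alone (-0.32, with fewer libraries in the fit). Cflar, an inhibitor of caspase-8, had an adjusted p of 0.0119 in edgeR with a log2 fold change of -0.25, short of the fold required. The median over the list was -0.15, beside -0.01 over all genes tested.

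Among 12 binding partners and turnover factors, Bag3 and Dynll1 were called higher and none lower (16.7%, beside 11.4% of all genes tested). Bag3, a co-chaperone that binds Bcl2, rose from 77.7 ± 5.44 to 134 ± 12.7 CPM (SD, n = 3), a log2 fold change of 0.79 (adjusted p = 1.6e-06 in edgeR). Dynll1, the dynein light chain that holds Bim at microtubules, was higher by 0.31 on the log2 scale (adjusted p = 0.0394 in edgeR), was called in 1 of the 6 fits that left out a library (that without BMP7 replicate 4, range 0.22 to 0.41), and is nearly identical over part of its transcript to 148 other genes. Vdac2, the mitochondrial channel that binds Bak1, was not called, at a mean of 187 CPM in Ctrl and 188 CPM in BMP7 (adjusted p = 0.949 in edgeR).

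Trp53 and its targets, the route by which Bbc3, Pmaip1 and Bax are known to be induced, went in both directions, with 1 of 21 tested genes called higher, where 5.99% of all genes tested were, and 3 lower, where 5.38% were. Cdkn1a, the cell cycle inhibitor p21, rose by a log2 fold change of 0.78, from 73.9 ± 3.37 to 127 ± 14.6 CPM (SD, n = 3, adjusted p = 2.2e-06 in edgeR). A stretch of 164 bases of a Cdkn1a transcript is 95.1% identical to a copy elsewhere, and 35 other genes hold such matches. The kinase genes Plk3 and Plk2 fell by 0.65 and 0.55 on the log2 scale (adjusted p = 0.000965 and 6.5e-05 in edgeR), and Ddit4, an inhibitor of mTORC1 signaling, fell by 0.43 (adjusted p = 0.000784 in edgeR). Each of the 4 stayed called without any 1 library. Mdm2, Phlda3 and Perp passed the adjusted p alone (0.0125, 0.0249 and 0.0303 in edgeR) with log2 fold changes of 0.26, 0.22 and 0.24, short of the fold required. By adjusted p alone 4 of the 21 genes were thus higher and 3 lower. Over all 15733 genes tested, 1153 were higher and 1010 lower by that rule, 13.7% in either direction. Trp53 itself was at 205 ± 6.14 and 198 ± 25.1 CPM (adjusted p = 0.739 in edgeR).

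Of 13 tested transcription factors that are known to act on BH3-only genes, 3 were called higher and 1 lower (30.8%, beside 11.4% of all genes tested). Jun, an AP-1 subunit, rose most, from 101, 90.1 and 100.1 CPM in Ctrl to 254, 249 and 227 CPM in BMP7 replicates 1, 3 and 4 (log2 fold change 1.32, SE 0.07, adjusted p = 7.96e-10 in edgeR). Trp63, the p53 relative of basal epithelium, rose from 238 ± 7.23 to 371 ± 23.6 CPM (SD, n = 3, log2 fold change 0.64, adjusted p = 2.1e-06 in edgeR). Runx3 was higher by 0.30 (adjusted p = 0.00723 in edgeR) and Egr1 lower, at -0.36 (adjusted p = 0.0396 in edgeR), but with BMP7 replicate 1 alone neither was called (0.21 and -0.28). Runx3 was also not called without Ctrl replicate 1 or BMP7 replicate 3 (range 0.25 to 0.34 over the 6 libraries left out in turn), and Egr1 not without Ctrl replicate 2 or 3 or BMP7 replicate 1 or 4 (range -0.48 to -0.25). Over all 5 lists the median log2 fold change was -0.03, beside -0.01 over all genes tested.

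**Figure D4:**
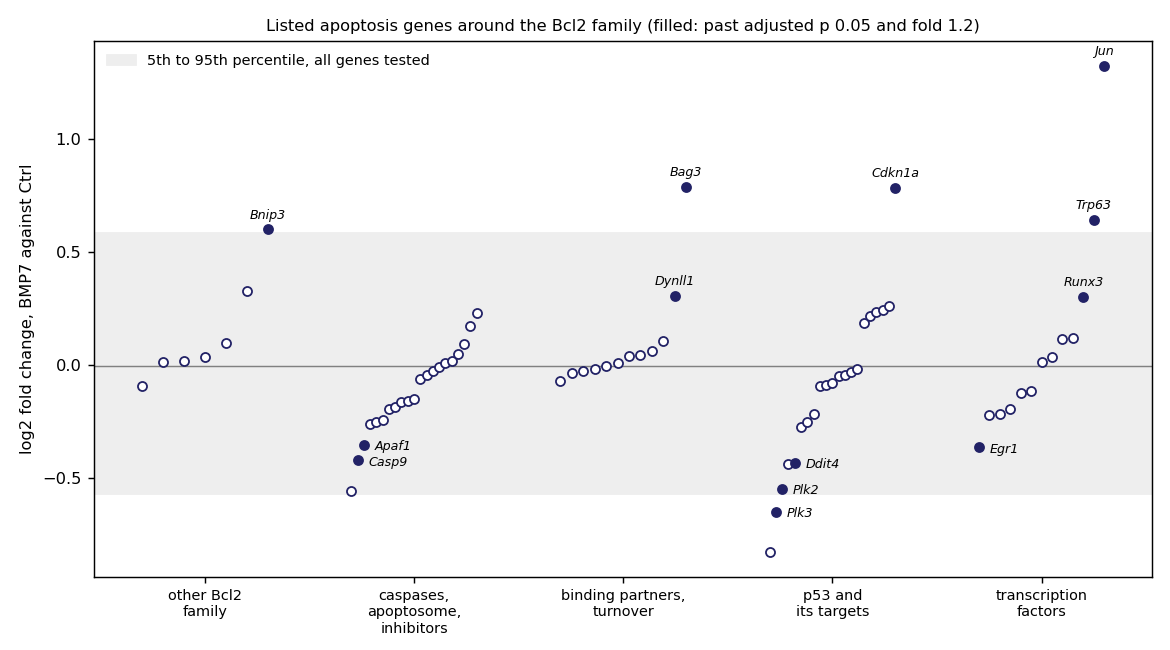
Log2 fold change of BMP7 against Ctrl (vertical axis) for the 74 tested pathway genes, by list. Filled and named points are genes called by edgeR, and the grey band holds the 5th to 95th percentile of all 15733 genes tested. Jun lies far above the band, and Apaf1 and Casp9 are the called genes among the caspases, the apoptosome and their inhibitors.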

How the data were processed

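RNA was measured in 3 BMP7 and 3 Ctrl libraries, grouped by their labels. The authors aligned read pairs with subjunc (Subread 2.0.3, per the methods to mm10), counted fragments per gene name with featureCounts (2.0.1 per the file header, on an mm39 annotation), and deposited counts without normalization, with each gene's summed exon length. Strand was not used, and fragments mapping to several places or genes were left out. The BMP7 columns carry the numbers 1, 3 and 4 and the titles 1 to 3, so columns were mapped to groups only.

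Counts were tested with edgeR 4.0.16 in R 4.3.3: filter by expression, TMM scaling, quasi-likelihood test and Benjamini-Hochberg adjustment over 15733 genes. Standard errors derive from the F statistic. Exact permutation tests used log2 CPM with a prior count of 2. Counts were also simulated for this contrast, and 15520 genes passed the filter. Of the changed genes that passed it, edgeR called 69.7% of 66 changed 1.5-fold, 82.1% of 67 changed 2-fold and 100% of 63 changed 4-fold. The numbers changed before the filter were 67, 67 and 66. Of the unchanged genes, 14 were called. Alternatives were DESeq2 1.42.0, RLE and upper-quartile scaling, other filters and fold thresholds, each library left out and a replicate block. CPM per kilobase and BMP7 replicate 1 alone were added after seeing the data.

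Members and lists were chosen with earlier results of these data known. Named genes are the 10 members, Id1, and the called genes of each list. Bcl2l13, Vdac2, Trp53, Mdm2, Phlda3, Perp, Cflar, the other family genes and the marker genes were named after their values were seen. BLAST 2.17.0 was used to look for near-identical copies in GENCODE vM21 transcripts at 95% identity over at least 100 bases. Totals of 14607938 to 23748970 counts make counting error small for the abundant genes, but not for Pmaip1 and less so for Bcl2 and Bbc3.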

Additional observations from a re-analysis of the deposited data

How the results depend on the processing

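Bcl2, Bcl2l1 and Bid kept their direction and their calls under all 13 alternatives, with log2 fold changes of -0.99 to -0.63, 0.56 to 0.75 and -0.64 to -0.56. The number of the 10 genes called higher was 2 in place of 1, with Bak1 added, when no filter on low counts was used (log2 fold change 0.37) and under the replicate block (0.62), and was 1 to 2 when single libraries were left out. The number called lower was 3 in place of 2 with upper-quartile scaling, through Bbc3 (-0.36). Bmf changed sign with upper-quartile scaling (-0.013), without Ctrl replicate 2 (-0.085), without Ctrl replicate 3 (-0.042), without BMP7 replicate 4 (-0.063), under the replicate block (-0.14) and with BMP7 replicate 1 alone (-0.065), and ranged from -0.085 to 0.16 when single libraries were left out. Over all genes, a fold threshold of 1.5 left 476 of 942 higher and 304 of 846 lower calls. Leaving out single libraries gave 723 to 1081 higher and 563 to 902 lower calls, the lowest of the latter without Ctrl replicate 2. The anti-apoptotic log2 ratio was 0.20 in CPM and 0.19 in CPM per kilobase in place of 0.08 in TPM, and the BH3-only ratio was -0.12 in CPM in place of -0.34. The sum in CPM weights long genes more, and TPM carries the shift named above. For other changes the cause was not tested. Pmaip1 could not be fitted with at least 10 counts in every library.

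The replicate block used the column numbers, of which the groups share only 1 and 3, and deviations of same-numbered libraries had correlations of -0.01 and 0.12, so libraries were not taken as pairs. The block called 1152 genes higher and 959 lower. Depth limits Pmaip1 and, less so, Bcl2 and Bbc3.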
